A study of Homo sapiens with 6 samples.

Results

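The IFIT family comprises the human genes IFIT1, IFIT1B, IFIT2, IFIT3 and IFIT5, which were picked out of the count table by gene symbol. They make up 5 of the 60240 rows of that table, and 4 of them were among the 17672 genes that passed the filter on low counts. The family was chosen by the difference of its members between LSD1 KO and WT cells, so every LSD1 KO against WT value of an IFIT gene given here is a description, with no test.

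IFIT genes encode interferon-induced proteins built from tetratricopeptide repeats. They are among the genes most readily switched on when a cell senses viral RNA or type I or type III interferon, through the transcription factor complex ISGF3 or directly through IRF3. Several IFIT proteins grip the 5′ end of RNA that lacks the marks of the cell's own mRNA, and IFIT proteins also bind one another.

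RNA-seq was carried out on HCT116, a human colorectal carcinoma cell line, to find the genes that depend on LSD1, a histone lysine demethylase encoded by KDM1A. The WT group had 3 libraries of unmodified HCT116 cells, and the LSD1 KO group had 3 libraries of HCT116 cells in which CRISPR/Cas9 was directed to exon 1 of the gene and individual clones were expanded. No interferon, virus or other stimulus is named for either group. How many clones stand behind the LSD1 KO libraries is not given in the sources used here, so an effect of the knockout and an effect of the clone cannot be told apart, and the study's methods speak of biological replicates in general, without saying what separates the libraries of a group.

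KDM1A itself had 223 ± 8.78 CPM (counts scaled to library size with the TMM factors of edgeR) in WT and 28.4 ± 1.30 CPM in LSD1 KO (SD, n = 3), a log2 difference of -2.97 (SE 0.15, q = 0.000451, edgeR's quasi-likelihood test with Benjamini-Hochberg adjustment). Libraries held between 25379279 and 29186963 counts. A count of 3, taken as the floor, was worth between 0.0994 and 0.114 CPM, for counting error only. Replicate 2 of both groups stood apart from the other libraries on the first principal component, which held 45.9% of the variance, so values without it are given where they bear on a result. All 7 epithelial markers (EPCAM, KRT8, KRT18, KRT19, CDH1, CLDN3 and CLDN4) passed the filter, with a summed level of 2129 to 3969 CPM in WT and 2536 to 3357 CPM in LSD1 KO. Fibroblast markers summed to 20.5 to 24.2 CPM in WT and 30.3 to 34.4 CPM in LSD1 KO, nearly all of it COL1A1, with LUM at 0 counts and the other 3 of these 5 genes under the filter. Leukocyte markers summed to at most 2.08 CPM in any library, with CD3E and TYROBP at 0 counts throughout, and the 2 endothelial markers matched in the table, CDH5 and VWF, to at most 1.36 CPM. With the replicate number as a block in the model, EPCAM was called lower in LSD1 KO, at 204 ± 39.2 and 104 ± 28.3 CPM (SD, n = 3, edgeR q = 0.0788). KRT18, CDH1 and KRT8 differed by -0.47, -0.34 and -0.15 on the log2 scale and were not called (edgeR q = 0.230, 0.196 and 0.645). KRT19, CLDN3 and CLDN4 differed by 0.45, 0.35 and 0.34 and were not called either (edgeR q = 0.123, 0.344 and 0.139). Groups did not overlap for EPCAM and KRT18, both lower, where the share over all tested genes was 3.51%. DESeq2 by group called EPCAM alone of the 7, as lower (q = 0.0508). DESeq2 with the block called KRT19 (q = 0.00373) and CLDN4 (q = 0.0473) as higher and did not call EPCAM (q = 0.162), so these markers did not move one way. In the edgeR fit with the block, COL1A1 was called higher, at 22.7 ± 1.97 and 32.4 ± 2.05 CPM (edgeR q = 0.0628). The part of these markers in the IFIT values was not tested.

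The family lies in one cluster on chromosome 10, with all members on the forward strand. On GRCh38.p14, RefSeq places IFIT2 at chr10:89302046-89309271, IFIT3 at chr10:89327997-89340968, IFIT1B at chr10:89378056-89385205, IFIT1 at chr10:89392623-89406487 and IFIT5 at chr10:89414568-89420997. The cluster spans 119 kb. Each canonical transcript (GENCODE, GRCh37 annotation) has 2 exons, and the coding sequence, which runs over both, is between 1416 bases in IFIT2 and 1470 bases in IFIT3. Aligned in pairs, the coding sequences were closest between IFIT1 and IFIT1B, at 78.3% identical bases, followed by IFIT1 and IFIT5 at 65.9%, and IFIT2 and IFIT3 at 65.7%. IFIT1 and IFIT3 were the least alike, at 56.9%.

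Interferon-responsive promoters carry the interferon-stimulated response element (ISRE), whose core reads GAAA, any 2 bases and GAAA again, or TTTC, any 2 bases and TTTC on the other strand. The promoters below are shown because IFIT1 and IFIT3, which had low RNA in LSD1 KO, can be compared in them with IFIT5 and the silent IFIT1B, letter by letter. They come from the RefSeq promoter table (GRCh38.p14, forward strand, 250 bases before to 50 bases after the start), and capitals mark each match to the ISRE core.
IFIT1, chr10:89392373-89392672: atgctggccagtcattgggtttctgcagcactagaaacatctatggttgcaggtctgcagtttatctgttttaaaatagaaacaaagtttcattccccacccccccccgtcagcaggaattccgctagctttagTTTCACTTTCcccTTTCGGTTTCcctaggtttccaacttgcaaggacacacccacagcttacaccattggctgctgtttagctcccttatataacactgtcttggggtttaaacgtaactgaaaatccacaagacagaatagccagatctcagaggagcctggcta
IFIT3, second start, chr10:89332279-89332578: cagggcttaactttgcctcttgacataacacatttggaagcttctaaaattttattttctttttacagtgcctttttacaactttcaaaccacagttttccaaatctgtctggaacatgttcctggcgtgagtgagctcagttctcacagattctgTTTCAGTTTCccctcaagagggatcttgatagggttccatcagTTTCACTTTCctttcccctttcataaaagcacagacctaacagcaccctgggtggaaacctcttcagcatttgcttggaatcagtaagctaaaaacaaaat
IFIT5, chr10:89414318-89414617: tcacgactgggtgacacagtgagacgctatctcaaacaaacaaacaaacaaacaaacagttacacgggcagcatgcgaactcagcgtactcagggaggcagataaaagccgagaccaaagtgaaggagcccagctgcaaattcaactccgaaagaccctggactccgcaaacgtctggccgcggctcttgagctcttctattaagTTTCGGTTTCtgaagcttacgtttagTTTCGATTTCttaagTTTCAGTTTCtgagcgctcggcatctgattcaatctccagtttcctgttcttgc
IFIT1B, chr10:89377806-89378105: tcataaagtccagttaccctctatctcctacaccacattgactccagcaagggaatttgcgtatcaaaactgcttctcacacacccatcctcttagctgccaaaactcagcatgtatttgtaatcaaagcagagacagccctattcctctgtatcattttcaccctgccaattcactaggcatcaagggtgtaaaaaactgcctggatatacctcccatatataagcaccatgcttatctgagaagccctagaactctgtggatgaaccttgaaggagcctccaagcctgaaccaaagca

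The IFIT1 promoter held 2 core matches, which began 116 and 103 bases before the start. Both windows of IFIT3 held 2, at 156 and 122 bases before the first start and at 94 and 51 bases before the second. The IFIT5 promoter held 3 matches, at 45, 19 and 4 bases before the start, the last of them running over the start itself. No match was found in the IFIT1B window. No RefSeq promoter window was available for IFIT2, so IFIT2 was not searched and is named only. The letters TATAAA were in no window of the family as read on the gene's own strand, and on the other strand (TTTATA) in the first IFIT3 window alone. On either strand they were in 11.5% of all windows. Only these exact letters were searched, so variants such as TATATA, which stands in the IFIT1 and IFIT1B windows above, were not counted. The absence of TATAAA is therefore not the absence of a TATA box.

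Matches to the core were found in 1255 of all 35116 promoter windows (3.57%), and windows with 2 or more matches numbered 91 (0.259%). Exact letters recurred within the family: TTTCACTTTC stood in the IFIT1 window and in both IFIT3 windows, TTTCGGTTTC in those of IFIT1 and IFIT5, and TTTCAGTTTC in the second IFIT3 window and that of IFIT5. On either strand, TTTCACTTTC was in 0.202% of all windows, TTTCGGTTTC in 0.108% and TTTCAGTTTC in 0.265%. A match says only that the letters are present.

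IFIT1, IFIT2 and IFIT3 were each lower in every LSD1 KO library than in any WT library, at 45.7%, 33.4% and 38.4% of their mean WT level, while the groups overlapped for IFIT5 at 88.2% and IFIT1B was at 0 counts in all 6 libraries. The family was selected on this contrast, so nothing is read from these counts. In bulk RNA, fewer cells that express a gene and less RNA in each cell cannot be told apart. Among all 17672 tested genes, 3.51% were lower in every LSD1 KO library than in any WT library, and 4.23% were higher in this way.

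IFIT1 encodes a protein that binds mRNA caps without ribose methylation and blocks their translation. Its level was 51.6, 67.6 and 51.3 CPM in WT replicates 1, 2 and 3, and 21.5, 35.7 and 20.6 CPM in LSD1 KO replicates 1, 2 and 3. Replicate 2 was the highest library in both groups, and the highest LSD1 KO library still lay below the lowest WT library. The means were 56.8 ± 9.37 CPM in WT and 25.9 ± 8.50 CPM in LSD1 KO (SD, n = 3), with a fitted log2 difference of -1.13 (SE 0.25).

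IFIT3 encodes a partner protein that stabilises IFIT1 and raises its grip on RNA. Its WT level was 25.5, 18.1 and 18.3 CPM, and its LSD1 KO level 7.65, 9.58 and 6.55 CPM, in replicates 1, 2 and 3. WT replicate 1 was high against the other WT libraries, whereas in LSD1 KO the highest library was replicate 2. The means were 20.6 ± 4.24 and 7.93 ± 1.53 CPM (SD, n = 3), and the log2 difference was -1.38 (SE 0.23).

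IFIT2 encodes a family member known for promoting apoptosis and for restricting viruses of the nervous system. It had 36.8, 36.2 and 30.1 CPM in WT and 11.0, 13.2 and 10.3 CPM in LSD1 KO. The spread among its libraries was the smallest of the family relative to the mean, with a coefficient of variation of 10.7% in WT and 13.0% in LSD1 KO, and its difference was the largest. The means were 34.3 ± 3.69 and 11.5 ± 1.49 CPM (SD, n = 3), with a log2 difference of -1.58 (SE 0.18).

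IFIT5 encodes a protein that works as a monomer and binds RNA with a 5′ phosphate. Its level was 27.8, 23.0 and 22.7 CPM in WT and 24.7, 22.4 and 17.7 CPM in LSD1 KO. Replicate 1 was the highest library and replicate 3 the lowest in both groups, and the values of the groups interleaved. The means were 24.5 ± 2.87 and 21.6 ± 3.56 CPM (SD, n = 3), and the log2 difference was -0.18 (SE 0.19), smaller than its own error.

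IFIT1B, the close relative of IFIT1, had 0 counts in every library, which allows a level of up to 0.0994 to 0.114 CPM. The pseudogene IFIT6P, was also at 0 counts throughout, and no more than 2 counts were assigned to the pseudogene IFIT1P1 in any library.

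**Figure D1:**
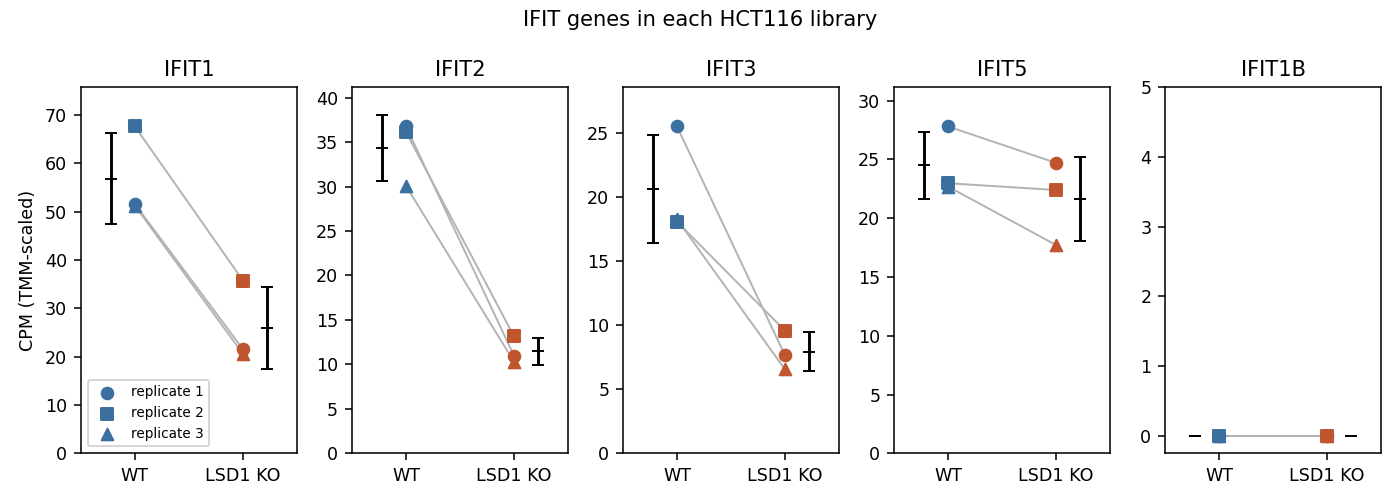
Level of each IFIT gene in CPM (linear axes from 0, except IFIT1B, whose axis begins just under 0 so that its points show) in WT (blue) and LSD1 KO (orange) libraries, with grey lines joining libraries of the same replicate number and black bars for the mean ± SD of 3 libraries. Every LSD1 KO point lies below every WT point for IFIT1, IFIT2 and IFIT3, the groups overlap for IFIT5, and IFIT1B is at 0.

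The libraries share replicate numbers, so each LSD1 KO library was also set against the WT library of its number. The differences in pairs 1, 2 and 3 were -1.26, -0.92 and -1.32 for IFIT1 on the log2 scale. For IFIT2 they were -1.74, -1.46 and -1.55, and for IFIT3 -1.74, -0.92 and -1.48. All 9 of these differences were negative, and pair 2 gave the smallest of each gene. IFIT5 also had its smallest difference in pair 2, with -0.17, -0.037 and -0.36. Without replicate 2 of both groups, the fitted log2 differences were -1.31 (SE 0.16) for IFIT1, -1.67 (SE 0.19) for IFIT2, -1.64 (SE 0.24) for IFIT3 and -0.27 (SE 0.22) for IFIT5.

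With the replicate number as a block in the edgeR model, the log2 differences stayed close, at -1.16, -1.58, -1.38 and -0.19 for IFIT1, IFIT2, IFIT3 and IFIT5. The SE of the IFIT1 difference was 0.11 with the block and 0.25 without it. That of IFIT3 was 0.17 with the block and 0.23 without it.

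**Figure D2:**
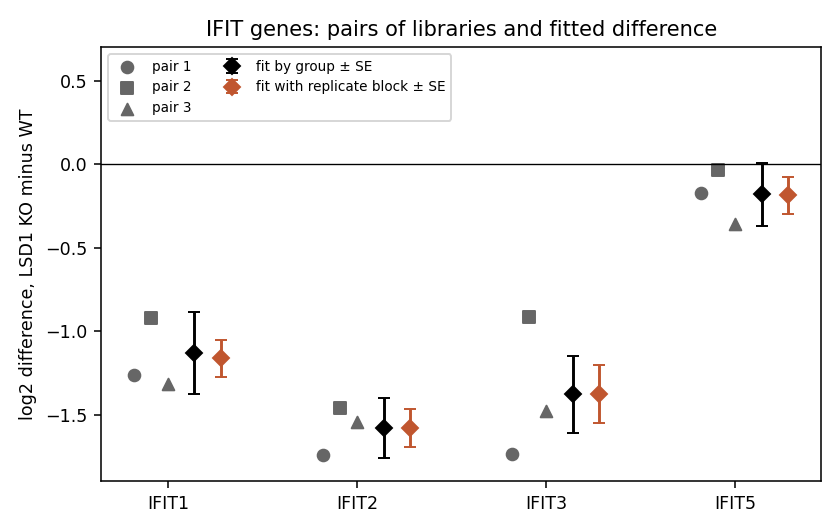
Log2 difference of LSD1 KO minus WT for the 4 IFIT genes with counts: grey symbols for the 3 pairs of libraries with the same replicate number, a black diamond for the fit by group and an orange diamond for the fit with the replicate block, each with ± SE. IFIT1, IFIT2 and IFIT3 lie between -1.74 and -0.92 in every pair, and IFIT5 lies between -0.36 and -0.037.

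To compare the members with one another, levels were divided by the length of the canonical transcript, between 2390 bases for IFIT3 and 4302 bases for IFIT1. In WT the level per kb was highest for IFIT1, at 13.2 ± 2.18 CPM per kb, followed by IFIT2 at 10.1 ± 1.09, IFIT3 at 8.64 ± 1.78 and IFIT5 at 6.08 ± 0.713 CPM per kb (SD, n = 3). The libraries of IFIT2 and IFIT3 overlapped, while those of IFIT1 lay above both and those of IFIT5 below both. In LSD1 KO the order was IFIT1 at 6.03 ± 1.98 CPM per kb, IFIT5 at 5.36 ± 0.884, IFIT2 at 3.38 ± 0.439 and IFIT3 at 3.32 ± 0.641 CPM per kb. Here the libraries of IFIT1 and IFIT5 overlapped, as did those of IFIT2 and IFIT3. IFIT5 moved from the lowest of the 4 genes in WT to a place above IFIT2 and IFIT3.

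The summed level of the family was 34.1 to 40.4 CPM per kb in WT and 15.0 to 21.8 CPM per kb in LSD1 KO. The share of IFIT5 in it was 16.0% ± 1.43 in WT and 30.0% ± 4.69 in LSD1 KO (SD, n = 3). IFIT2 made up 26.6% ± 0.470 and 18.8% ± 1.29. The share of IFIT1 was 34.8% ± 5.00 in WT and 32.9% ± 4.92 in LSD1 KO, a difference smaller than the spread between replicates, and that of IFIT3 was 22.7% ± 3.68 and 18.3% ± 0.104. The ratio of IFIT2 to IFIT5 per kb was 1.67 ± 0.171 in WT and 0.638 ± 0.0960 in LSD1 KO, whereas IFIT2 over IFIT3 was 1.19 ± 0.199 and 1.03 ± 0.0718. Both ratios are taken within a library, so they do not depend on its scaling.

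**Figure D3:**
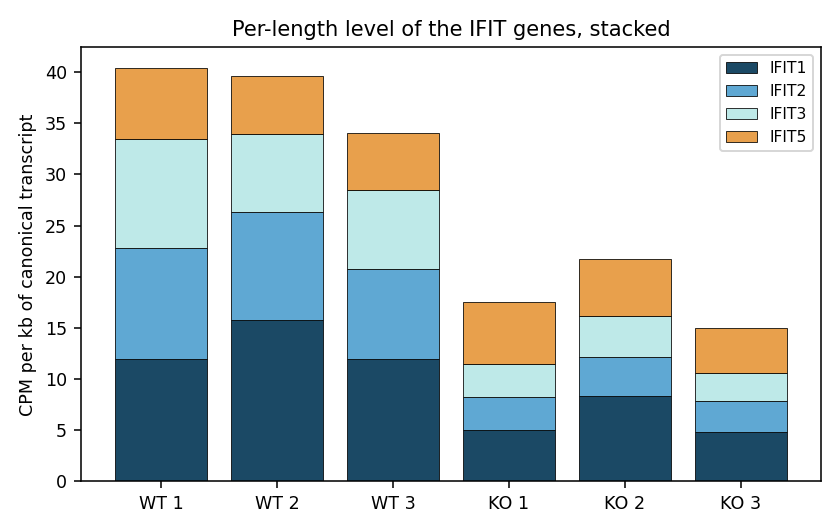
Level of IFIT1, IFIT2, IFIT3 and IFIT5 in CPM per kb of canonical transcript, stacked for each of the 3 WT and 3 LSD1 KO libraries, from 0. The stacks reach 34.1 to 40.4 in WT and 15.0 to 21.8 in LSD1 KO, and the IFIT5 segment is 5.63 to 6.90 high in WT and 4.40 to 6.13 high in LSD1 KO.

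Reads could have been shared between members or with neighbouring genes. Of the 31-base runs in the transcripts of IFIT1, 1.84% also occurred in another member, 85 of them in IFIT1B. IFIT2 and IFIT3 shared none with another member, and IFIT5 shared 0.0680%. Counting genes outside the family too, 3.47% of the IFIT1 runs and 6.23% of the IFIT3 runs occurred elsewhere, those of IFIT3 most often in XACT, at 86 runs. Of the IFIT2 runs, 10.1% were shared with ENSG00000232110, a lncRNA on the same strand that overlaps IFIT2. That lncRNA had 2.89 ± 1.48 CPM in WT and 2.37 ± 1.60 CPM in LSD1 KO (SD, n = 3). The overlap covers 12.1% of the IFIT2 exon bases, and its 524 bases exceed the 495 bases of the canonical lncRNA transcript. The counts of these 2 genes are uncertain for this reason, and the shared part of the lncRNA runs was not measured. LIPA, the lysosomal acid lipase gene on the opposite strand, shares 65 exon bases with IFIT2 and 94 with IFIT3. Whether counting used strand is not given in the sources used here, so reads from these stretches cannot be assigned to one strand.

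The genes around the cluster were examined to see whether they differed along with it. Of 31 annotated genes within 500 kb of the family (GRCh37 annotation), 29 were in the count table, 13 of them at 0 counts in every library, and 9 passed the filter. None of the 9 was called by edgeR by group at a q value under 0.1, none reached an unadjusted p under 0.05 in that fit, and none was called with the replicate block or by DESeq2. The largest difference was that of ANKRD22, which had 1.21 ± 0.745 CPM in WT and 3.06 ± 2.92 CPM in LSD1 KO (SD, n = 3), with pair differences of 0.85, 1.74 and 0.65 on the log2 scale. With the block its log2 difference was 1.14 (SE 0.32, edgeR q = 0.183). The background was 0.00566% of tested genes called by group, and 0.549% called lower and 1.05% called higher with the block.

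LIPA, whose annotated body reaches across IFIT2, IFIT3, IFIT1B and IFIT1, had 45.4, 45.6 and 43.9 CPM in WT and 44.8, 65.8 and 51.6 CPM in LSD1 KO. Its groups overlapped, and its log2 difference was 0.27 (SE 0.18, q = 0.999 by edgeR, and 0.406 with the replicate block). SLC16A12, the next gene after IFIT5, had at most 9 counts in a library. With replicate 2 of both groups left out and the block kept, 1 of 9 tested neighbours was called. It was STAMBPL1, at a log2 difference of -0.92 (SE 0.15, edgeR q = 0.000506), and this gene was named after its value had been seen. Of the 18043 genes tested in that fit, 2.79% were called lower and 3.05% higher. In the pairs, STAMBPL1 differed by -0.91, 0.56 and -0.90.

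**Figure D4:**
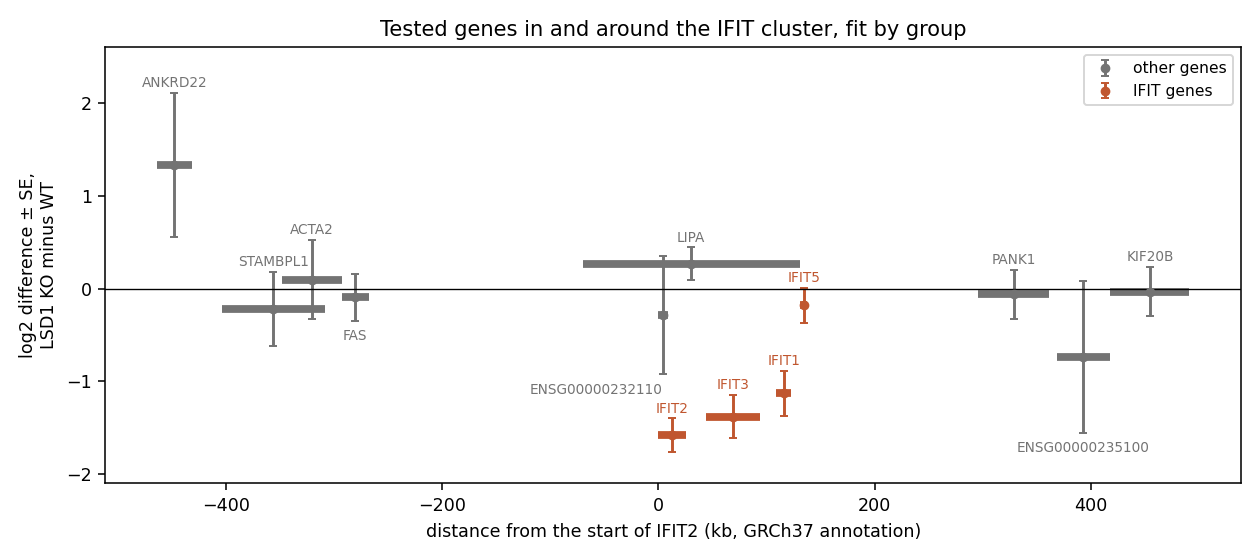
Log2 difference of LSD1 KO minus WT (fit by group, ± SE) for the tested genes of the cluster region, drawn as bars over their extent in kb from the start of IFIT2 on the GRCh37 annotation. IFIT2, IFIT3 and IFIT1 (orange) lie between -1.58 and -1.13, IFIT5 lies at -0.18, and LIPA (grey), whose body overlaps the first 3 of these, lies at 0.27.

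Other interferon target genes were then read from a list of 50 genes known to be driven by ISGF3, which holds no IFIT gene. The list was written with earlier results of these data known, so its counts beside the shares over all genes are a description. Of these, 41 passed the filter. Tested by group, edgeR called 0 of the 41, with 8 at an unadjusted p under 0.05. With the replicate block it called 6 as lower in LSD1 KO and 1 as higher, against a background of 0.549% lower and 1.05% higher among all tested genes. Groups did not overlap for 6 genes that were lower and 1 that was higher, where the shares over all tested genes were 3.51% and 4.23%. The median log2 difference of the 41 genes was 0.00093, beside 0.00082 over all tested genes, and 20 of the 41 were negative.

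With the block, the 6 genes that fell include a sensor and antiviral effectors. RIGI, the cytosolic sensor of 5′ triphosphate RNA, fell by 0.98 on the log2 scale (SE 0.13, edgeR q = 0.0214), from 37.1 ± 1.03 to 19.0 ± 3.73 CPM (SD, n = 3). OASL, an oligoadenylate synthetase-like protein that supports RIGI, fell by 1.16 (SE 0.15, q = 0.0196), from 41.0 ± 1.65 to 18.9 ± 6.47 CPM. IFI44 fell by 1.73 (SE 0.28, q = 0.0354), from 7.52 ± 1.26 to 2.38 ± 1.11 CPM. ISG15, a ubiquitin-like modifier, fell by 0.75 (SE 0.10, q = 0.0214) within pairs, although its groups overlapped at 306 ± 121 and 181 ± 67.5 CPM. HERC5, the ligase that attaches ISG15, fell by 0.51 (q = 0.0788), and its groups also overlapped, at 74.8 ± 13.5 and 53.7 ± 17.0 CPM. DDX60, a helicase, fell by 0.72 (q = 0.0539).

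IFI6, an antiviral protein of the endoplasmic reticulum, rose by 0.65 on the log2 scale (SE 0.095, edgeR q = 0.0255 with the block). Its groups overlapped, at 38.9 ± 18.6 CPM in WT and 60.2 ± 25.4 CPM in LSD1 KO. Among the genes that did not pass, CMPK2, a mitochondrial nucleotide kinase, differed by -1.30 (SE 0.29, q = 0.109 with the block), close to IFIT3 in size. BST2, or tetherin, differed by 1.05 (q = 0.219), APOL1 by -0.96 (q = 0.301) and IFIH1, a sensor of long RNA duplexes, by -0.50 (q = 0.228). Set beside the list, the IFIT1, IFIT2 and IFIT3 differences of -1.16, -1.58 and -1.38 in the same fit lie among the lowest. That of IFIT5, -0.19, lies near the middle. The family was chosen on this contrast, so nothing is read from these places. Without replicate 2 of both groups the block fit called 10 of 42 genes as lower and 3 as higher, against 2.79% and 3.05% of 18043 tested genes. The 4 further genes that fell there were IFIH1, CMPK2, DDX60L and SAMD9, and the 2 that rose beside IFI6 were IFI35 and BST2.

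**Figure D5:**
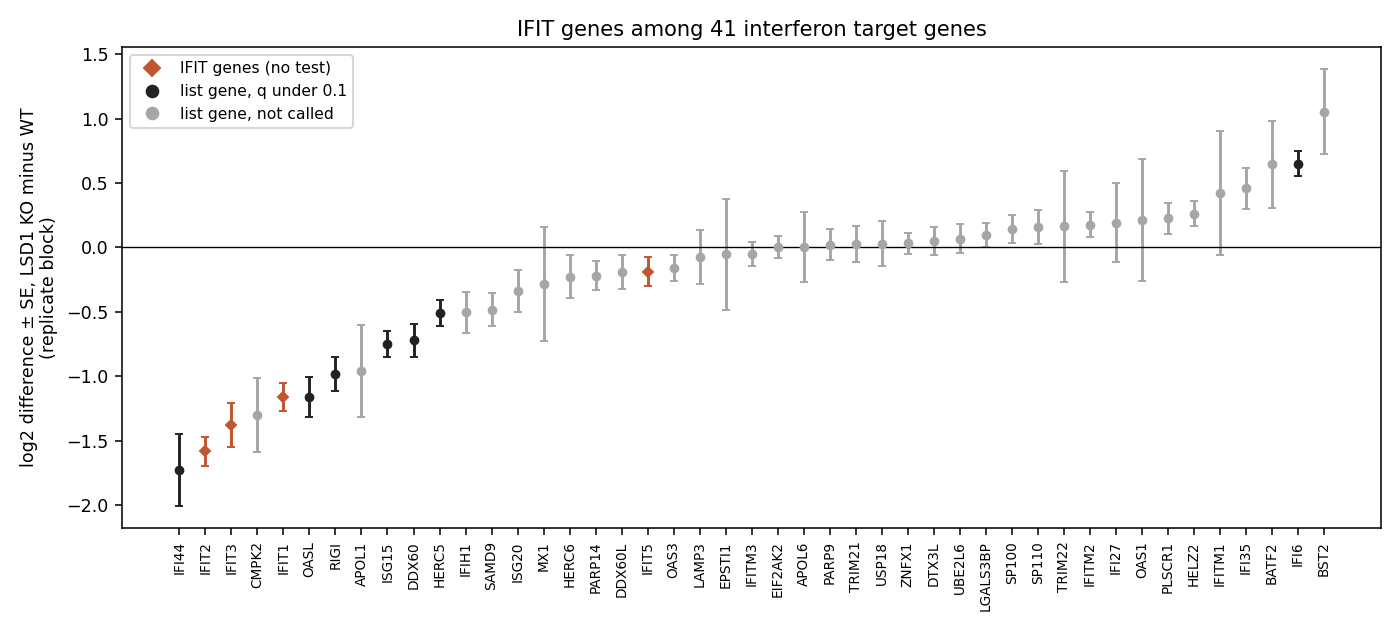
Log2 difference of LSD1 KO minus WT in the fit with the replicate block (± SE) for the 41 tested ISGF3 target genes and the 4 IFIT genes (orange diamonds, no test), in rising order. Black points are list genes called at a q value under 0.1; the differences run from -1.73 for IFI44 to 1.05 for BST2, with IFIT2, IFIT3 and IFIT1 near the low end and IFIT5 nearer the middle.

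The promoter letters of the family were common on this list. ISRE core matches were in 32 of its 54 windows (59.3%) and in 28 of its 40 genes with a window (70.0%). Of the genes that fell with the block, 5 had a window and 4 held a match, and RIGI held none. Of the 34 genes not called, 27 had a window and 18 held a match. Over all tested genes outside the family, 39 had 2 or more matches in a window, and their median log2 difference was 0.026, with 19 negative. Only DDX60 among these 39 was lower in every LSD1 KO library than in any WT library (2.56%), beside 3.63% of the 11444 genes with no match. With the replicate block, edgeR called 3 of the 39 as lower and 2 as higher, beside 65 and 126 of the 11444 genes with no match. Of the 39 genes, 12 stand on the ISGF3 list, among them the 3 called lower, ISG15, HERC5 and DDX60.

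Signalling upstream of the family was read from 32 genes, of which 29 passed the filter. By group, edgeR called 0 of the 29, with 3 at an unadjusted p under 0.05. With the block it called RIGI as lower and STING1 as higher, beside 0.549% and 1.05% of all tested genes. RIGI also stands on the ISGF3 list, as do IFIH1 and USP18, so the RIGI call is the one already counted there. STING1, the adaptor for cytosolic DNA sensing, rose by 0.58 on the log2 scale (SE 0.12, edgeR q = 0.0856), from 16.7 ± 1.38 to 24.9 ± 1.87 CPM (SD, n = 3). The median log2 difference of the 29 genes was -0.0068. Without replicate 2 of both groups, the block fit called 4 of 28 genes, RIGI and IFIH1 as lower and IRF9 and STING1 as higher. The shares over the 18043 genes tested in that fit were 2.79% lower and 3.05% higher. Groups did not overlap for 1 gene that was lower, RIGI, and for 5 that were higher, JAK1, TYK2, STAT2, IRF9 and STING1, where the shares over all tested genes were 3.51% and 4.23%.

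Of the ISGF3 subunits, STAT2 had 39.5 ± 1.64 CPM in WT and 47.0 ± 3.24 CPM in LSD1 KO (SD, n = 3). IRF9, the DNA-binding subunit, had 7.60 ± 3.01 and 12.1 ± 0.561 CPM, a log2 difference of 0.67 (SE 0.31, edgeR q = 0.999, and 0.201 with the block). DESeq2 with the block called IRF9 as higher (q = 0.0958). Without replicate 2 of both groups, edgeR with the block also called it, at a log2 difference of 0.93 (SE 0.20, q = 0.00594). The mean of STAT2 and that of IRF9 were higher in LSD1 KO, opposite to IFIT1, IFIT2 and IFIT3. TYK2, a kinase of the interferon receptor, had 64.9 ± 1.30 and 77.4 ± 6.24 CPM. Of the ligands, IFNB1 had at most 2 counts in a library, and IFNL1, a type III interferon, had 1.09 ± 0.481 and 0.464 ± 0.378 CPM (edgeR q = 0.226 with the block).

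The partners of IFIT proteins and the enzymes of the RNA 5′ end formed a list of 26 genes, all of which passed the filter. By group, edgeR called 0 of the 26, with 1 at an unadjusted p under 0.05, and with the block only STING1, as higher (background 1.05%), which also stands on the signalling list. The median log2 difference was 0.067. The 13 subunits of the translation initiation factor eIF3, to which IFIT1 and IFIT2 bind, lay between -0.18 for EIF3B and 0.21 for EIF3L. CMTR1 and CMTR2, which add the ribose methyl groups that IFIT1 reads as self, differed by 0.19 (SE 0.16) and 0.19 (SE 0.15). Groups did not overlap for 3 genes that were higher in LSD1 KO, CMTR2, EIF3L and STING1, and for 0 that were lower, beside 4.23% and 3.51% of all tested genes.

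The genes whose profile over the 6 libraries was most like that of the family were found among 14796 tested genes with a mean of at least 1 CPM. Likeness was the root mean square difference between centred log2 CPM profiles, and the family profile was the mean of IFIT1, IFIT2, IFIT3 and IFIT5. The nearest gene was RIGI, at 0.109, followed by MALL at 0.155, FGF2 at 0.155, TMEM98 at 0.156 and MRAP2 at 0.168. IFIT3 was at 0.187 from that mean, IFIT1 at 0.197, IFIT2 at 0.257 and IFIT5 at 0.464, so the mean is not the profile of any one member. The measure uses the same libraries and contrast that chose the family, and the points share them.

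Taken one by one, among 14799 genes, the nearest to IFIT2 was its neighbour IFIT3, at 0.180, and CMPK2 came next. The nearest to IFIT3 was CMPK2 at 0.157, and IFIT2 came next. IFIT1 was nearest to TMEM98 at 0.0766 and to OASL at 0.118, with IFIT2 at rank 16 and IFIT3 at rank 23. For IFIT5 the nearest were ATG7, PSMD1 and PI4K2B, at 0.0498 to 0.0569, while IFIT1 stood at rank 12994, IFIT3 at 13257 and IFIT2 at 13890.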

How the data were processed

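RNA-seq of polyA RNA from 6 HCT116 libraries, 3 WT and 3 LSD1 KO, was analysed. The authors trimmed read pairs with Trimmomatic 0.39 after FastQC, quantified them with Salmon 1.4.0 (versions from the submitters' processing notes) against GENCODE transcripts on GRCh38 and deposited expected counts per gene as whole numbers, not scaled for depth. The step from transcripts to genes and the handling of strand are not given in the sources used here. Groups were taken from the sample titles.

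Counts were compared with edgeR 4.0.16 in R 4.3.3 (TMM, filterByExpr by group, quasi-likelihood test, Benjamini-Hochberg over 17672 genes, q under 0.1). SEs were derived from the log2 difference and the F statistic. Alternatives were a replicate block, RLE factors, other filters, DESeq2 1.42.0 and leaving out libraries. With 3 libraries against 3, an exact permutation test of one gene cannot give a p below 0.1, so none is printed. P-values measure only the spread between these libraries. WT and LSD1 KO libraries of the same number deviated together from their group means, with Pearson's r of 0.553, 0.553 and 0.404 over 17672 genes, against -0.516 to 0.0454 for different numbers, so the numbers were taken to pair the libraries. This comes from the data, since the labels give the number alone.

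The members and gene lists were chosen with earlier results of these data known. Genes were named by a fixed rule: all members, KDM1A, list genes called in either edgeR fit, up to 4 uncalled genes of each list with the smallest p, neighbours that overlap or adjoin a member, and the 5 genes of most similar profile. JAK1, STAT2, IFNB1, STAMBPL1, XACT, the marker genes and the genes nearest to a single member were added after values had been seen, as were genes called only without replicate 2. Some items are not reported here. Symbols were matched for 58395 of 60240 identifiers. Transcript lengths, overlaps and neighbours came from GENCODE v44lift37 on GRCh37, and member positions and promoters from RefSeq on GRCh38.p14. Coding sequences were aligned with Biopython 1.88. Before use, the fits were run on simulated counts that held 200 changed genes.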

Additional observations from a re-analysis of the deposited data

How the results depend on the processing

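The log2 differences of the IFIT genes kept their sign under all 16 alternatives and moved by less than 1 SD between replicates. They ranged from -1.45 to -0.99 for IFIT1, -1.71 to -1.50 for IFIT2, -1.64 to -1.19 for IFIT3 and -0.29 to -0.057 for IFIT5. Counts of calls moved more. By group, edgeR called 1 gene, KDM1A, and this count became 114 with every gene above 0 counts kept, 95 with DESeq2, 282 with the replicate block and 597 with DESeq2 and the replicate block. Leaving out one library gave 1 to 26, the 26 without LSD1 KO replicate 2. For the ISGF3 target genes, 0 calls became 3 with every gene kept, 3 with DESeq2 (IFI44, OASL and RIGI, all lower), 7 with the replicate block, 8 with DESeq2 and the block, and 0 to 1 without one library. For the signalling genes, 0 became 1, 1, 2 and 3 in the same order, and for the partner genes 1 with the block in either tool. The neighbours had 0 calls under the alternatives named so far. The cause of these shifts was not tested. Fits without a replicate number in both groups were added after seeing the data. By group and without replicate 2 there were 22 calls, 1 of them an ISGF3 target gene, OASL. With the replicate block, leaving out one number gave 428 calls without replicate 1, 1055 without replicate 2 and 198 without replicate 3, 6 to 13 ISGF3 target genes, 1 to 4 signalling genes, 0 to 1 partner genes and 0 to 1 neighbours. RLE factors and a minimum of 10 counts in every library moved no count. IFIT3 in LSD1 KO rested on 173 to 260 counts in a library, the fewest of the 4 genes.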
